A study of Rattus norvegicus with 96 samples.

Results

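Gene expression was compared between rats on a whole egg-based diet and rats on a casein-based diet in the gene table that the deposit labels adipose, which the study describes as visceral adipose tissue (VAT). The table holds 32883 genes by Ensembl ID, and the 8403 that reached 10 counts in 6 or more of its 12 libraries were tested, so every gene that passed this filter belongs to the comparison. The 12 libraries are 12 of the 96 samples of the series, in which messenger RNA was also sequenced in tables labelled kidney, liver and brain, with 48 gene libraries in all. The egg group was 6 male Sprague Dawley rats given a diet based on dried whole egg for 2 weeks, and the casein group was 6 male Sprague Dawley rats given a casein-based diet matched for protein for the same 2 weeks. All 12 were healthy outbred rats of 9 weeks when tissue was taken, with no transgene, drug treatment or induced disease in either group. Before that, all were fasted overnight for 12 h and anesthetized with ketamine and xylazine. The diets differed in the whole protein source with its lipids and vitamins, so no single egg component was varied. The diet of each rat is not in the sample labels and was read from the headings of the count columns, where animals 2, 4, 5, 8, 10 and 12 are marked egg and animals 1, 3, 6, 7, 9 and 11 casein.

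Glutathione transferases, of which 4 are followed below, couple glutathione to reactive electrophiles and so prepare drugs, lipid peroxidation products and other foreign compounds for excretion. Liver and kidney are rich in these enzymes, and many of their genes respond to oxidants and dietary compounds through antioxidant response elements. Aldo-keto reductases reduce aldehydes and ketones, steroids among them, and osteopontin, the product of Spp1, is a secreted phosphoprotein of bone, kidney tubules and macrophages that is also made in inflamed fat.

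The label of the table was checked against marker genes first, since the biology depends on which tissue was sampled. Levels are in CPM, a library's counts scaled to a common effective library size. Aqp1, a water channel of the proximal tubule and of endothelium, had a median of 1140 CPM over the 12 adipose-labelled libraries, against 8.98 CPM in the kidney-labelled, 30.3 CPM in the brain-labelled and 387 CPM in the liver-labelled libraries. Slc12a3, the thiazide-sensitive sodium chloride cotransporter of the distal tubule, had a median of 211 CPM in the adipose-labelled table and at most 6.03 CPM in any other. Slc13a2, a dicarboxylate carrier of the proximal tubule, had a median of 51.1 CPM in the adipose-labelled table and was at 0 in the kidney- and liver-labelled tables. Slc17a3, a urate and organic anion carrier, had a median of 68.2 CPM in the adipose-labelled table. It had 24.1 CPM in the brain-labelled, 0.379 CPM in the kidney-labelled and 0.375 CPM in the liver-labelled table. Of the 12 adipocyte markers listed, only Fasn and Scd, both enzymes of fatty acid synthesis, could be matched to an ID. Fasn had a median of 27.4 CPM in the adipose-labelled table and 415 CPM in the liver-labelled table, and Scd 4.28 CPM in the adipose-labelled table and 392 CPM in the liver-labelled table. These markers go against the adipose label, and those found are transport genes of the renal tubule, so the table is called adipose-labelled throughout, and none of its results is read as a result about fat. Adiponectin, perilipin and leptin genes could not be matched by symbol and were not analysed here.

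**Figure D1:**
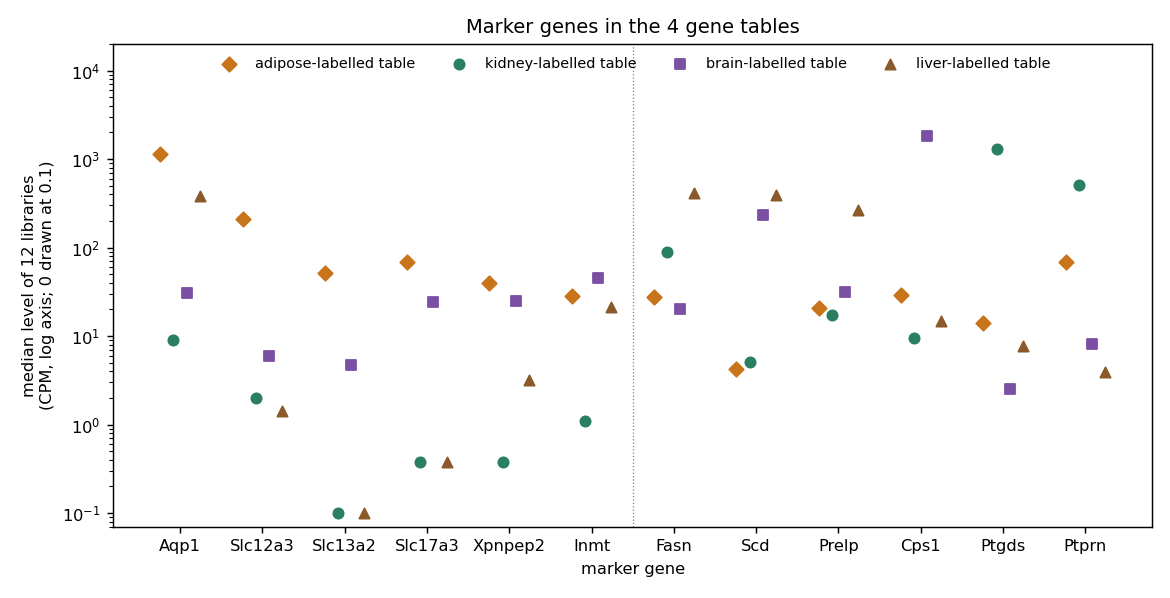
Median level of 12 marker genes over the 12 libraries of each gene table, in CPM on a log axis, with 0 drawn at 0.1. The tubule genes on the left of the dotted line were highest in the adipose-labelled table except Inmt, whose median was 45.4 CPM in the brain-labelled table and 28.1 CPM in the adipose-labelled table, and the markers of other cell types on the right were each highest in another table.

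The libraries were unequal in makeup. Total counts in genes were 1708553 to 4403350 (median 1917055) in the egg libraries and 941980 to 5120978 (median 1991397) in the casein libraries, with the lowest in animal 9. The 10 most abundant genes held 79.7% of counts in animal 4 (egg) and 73.2% and 72.9% in animals 3 and 6 (both casein), against 38.6% to 59.4% in the other 9 libraries.

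With diet as the only term, 5 of the 8403 genes tested (0.0595%) differed between diets at a Benjamini-Hochberg adjusted p under 0.05 by edgeR's quasi-likelihood test. Gstp1 and Inmt were higher on egg (2 genes, 0.0238% of those tested), and Akr1c14, Anxa5 and ENSRNOG00000007243 were lower (3 genes, 0.0357%). The median log2 fold change over all genes tested was -0.02. At an unadjusted p under 0.05 there were 421 genes (5.01%), 189 higher on egg (2.25%) and 232 lower (2.76%). The 2 groups of 6 libraries did not overlap at all for 37 genes (0.44%), of which 14 (0.167%) were higher in every egg library and 23 (0.274%) lower in every egg library. DESeq2 called 21 genes (0.25%) and limma-voom 8 (0.0952%) on the same counts. In bulk tissue, fewer cells of a type and less RNA per cell cannot be told apart, and this holds for every level below.

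**Figure D2:**
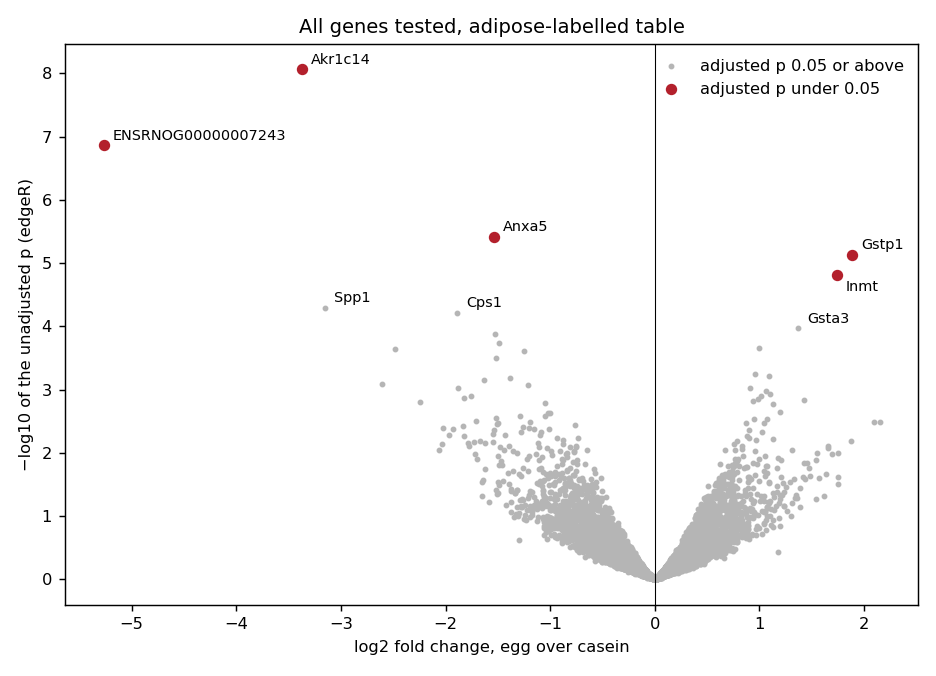
Log2 fold change of egg over casein against −log10 of the unadjusted p for the 8403 genes tested, with the 5 genes at an adjusted p under 0.05 in red. Akr1c14 and ENSRNOG00000007243 stand furthest from the rest on the side lower on egg, and Gstp1 and Inmt lead the side higher on egg.

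Most of the table has no gene names. Of the IDs, 75 carry an entry in the name lists used here, which gave 71 symbols, and 56 of these were tested. The genes so named were largely picked by the study from these same libraries, so how many of them passed is not independent evidence. Among the 56, 12 were higher and 13 lower on egg at an unadjusted p under 0.05. Of 22 genes named for their change in this tissue, 21 were tested, 9 higher and 12 lower on egg by the fitted fold change. By edgeR 4 of them passed the adjusted threshold, and by DESeq2, the tool the study used, 18 did. The groups did not overlap for 16 of these 21, a count fixed largely by how they were chosen. The remaining one, Ddit4l, a stress-induced gene related to an inhibitor of mTOR signalling, was below the count filter, with 0 to 4.06 CPM on egg (median 2.01) and 2.66 to 18.4 CPM on casein (median 9.97).

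The lowest p in the table was that of Akr1c14 (ENSRNOG00000017672), the rat aldo-keto reductase that acts as a hydroxysteroid dehydrogenase. It had 3.32 to 15.2 CPM in the egg libraries (median 8.01) and 38.9 to 142 CPM in the casein libraries (median 78.0). Every egg library lay below every casein library. The level on egg was 10.4-fold lower, or -3.37 ± 0.395 (SE) on the log2 scale (adjusted p = 7.26e-05 by edgeR), from 108 counts over the egg libraries and 1526 over the casein libraries. The call held in all 20 alternative fits in which the gene was tested, with adjusted p of at most 0.00125. Akr1c14 belongs to a multigene family in rats, and how reads shared with a near-identical family member were counted was not checked.

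The other strong decrease had no name in the files or tables used here. ENSRNOG00000007243 had 0 to 5.40 CPM in the egg libraries (median 0.227), with 3 of the 6 at 0, and 12.8 to 111 CPM in the casein libraries (median 34.8). These are 15 counts in all on egg against 785 on casein. The fitted log2 change was -5.27 (SE 0.70, adjusted p = 0.000571 by edgeR), a value that depends on the prior count because egg libraries sit at or near 0. It also rests on egg animal 5, the egg library with 5.40 CPM, without which it was -7.23 (adjusted p = 7.06e-06). The gene had a median of 0 CPM in both diets of the brain-, kidney- and liver-labelled tables. A second unnamed gene, ENSRNOG00000008849, showed 1.36 to 9.19 CPM on egg (median 3.38) and 2.56 to 56.5 CPM on casein (median 24.2). With overlapping groups it did not pass by edgeR (log2 fold change -2.48, SE 0.569, adjusted p = 0.155) unless animal 9 was left out (-2.70, adjusted p = 0.0293). It passed by DESeq2 (adjusted p = 0.0104) and did not pass by limma-voom (adjusted p = 0.564).

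Anxa5 (ENSRNOG00000014453) encodes annexin A5, which binds phosphatidylserine in membranes in the presence of calcium. It had 72.0 to 176 CPM in the egg libraries (median 82.6) and 193 to 340 CPM in the casein libraries (median 308). No egg library reached the lowest casein library, animal 9. The level on egg was 2.91-fold lower, or -1.54 ± 0.26 (SE) on the log2 scale (adjusted p = 0.0106 by edgeR). The call held when each animal was left out in turn, with adjusted p of at most 0.047, but not without animals 3, 4 and 6 together (adjusted p = 0.291).

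Gstp1 (ENSRNOG00000018237), the pi class glutathione transferase, had the lowest p among genes higher on egg. It had 258 to 1360 CPM in the egg libraries (median 537) and 115 to 196 CPM in the casein libraries (median 159). The groups did not overlap, and the highest egg value, in animal 5, was more than the next by a wide margin, at 1360 CPM against 573 CPM. The level on egg was 3.7-fold higher, or 1.89 ± 0.333 (SE) on the log2 scale (adjusted p = 0.0155 by edgeR). Without animal 5 the log2 fold change was 1.45 (adjusted p = 0.0405), and the call was lost without animal 1, 3 or 6, with adjusted p of 0.0526, 0.0715 and 0.066. Without animals 3, 4 and 6 together the log2 fold change was 1.94 and the adjusted p 0.16.

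Inmt (ENSRNOG00000011250), which transfers methyl groups to tryptamine and related amines, had 31.4 to 114 CPM in the egg libraries (median 56.6) and 12.1 to 24.7 CPM in the casein libraries (median 18.1). All 6 egg libraries lay above all 6 casein libraries. The level on egg was 3.33-fold higher, or 1.74 ± 0.323 (SE) on the log2 scale (adjusted p = 0.0256 by edgeR). This was the least stable of the 5 calls, and limma-voom gave an adjusted p of 0.0677. It was lost without animal 1, 2, 3, 5, 6 or 12, with adjusted p of 0.107, 0.055, 0.0767, 0.0981, 0.066 and 0.0992, and without animals 3, 4 and 6 together (0.16), while the log2 fold change stayed between 1.49 and 1.88.

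**Figure D3:**
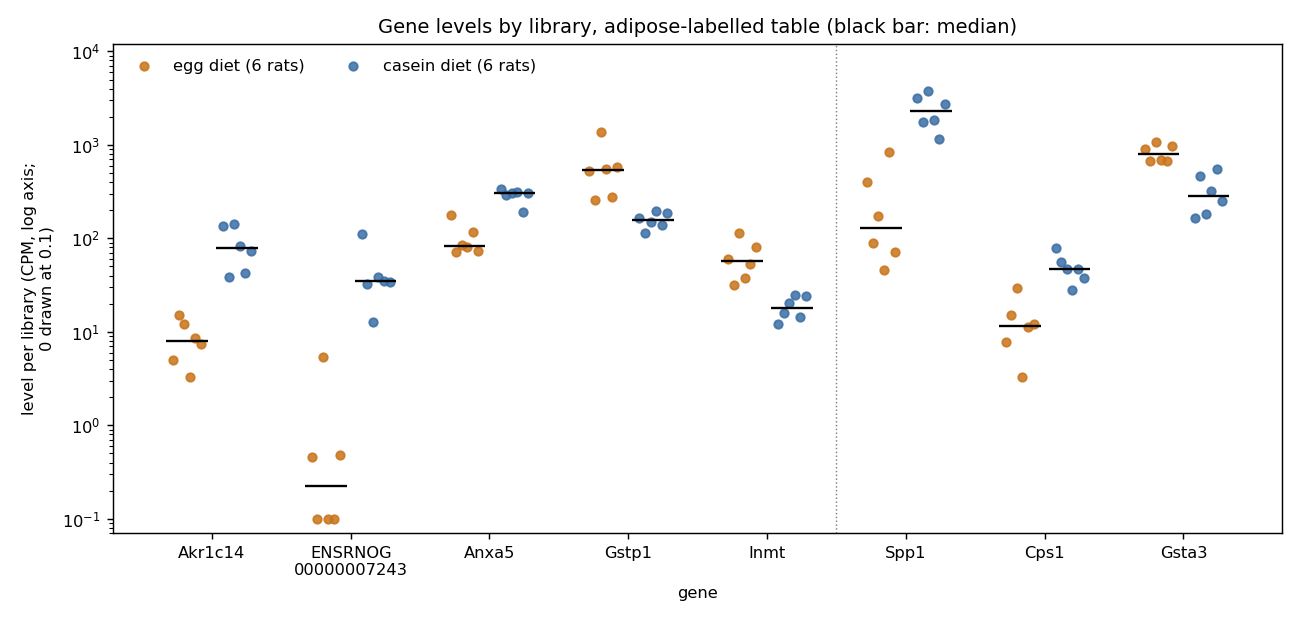
Level of the 5 genes that passed the test (left of the dotted line) and of Spp1, Cps1 and Gsta3, in CPM on a log axis with 0 drawn at 0.1, for each of the 6 egg libraries and 6 casein libraries, with the median as a black bar. Egg and casein points separate fully for every gene shown except Cps1, where 5 of the 6 egg libraries lie below every casein library.

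The sequence just upstream of the start site is shown for the 4 named genes that passed, because 2 of them moved up together and 2 down. These are the 250 bases before the start from RefSeq on assembly GRCr8, which is another build than the one the counts were made on, and genes were matched by symbol. Capitals mark 3 searched motifs on either strand: the antioxidant response element core TGACNNNGC, the TATA box TATAAA and the GC box GGGCGG. The Gstp1 window, on the minus strand at chr1:210769706-210769955, holds TGACTCAGC at positions -61 to -53 from the start and a GC box at -47 to -42. The Inmt window, on the minus strand at chr4:85652756-85653005, holds TATAAA at -21 to -16. The Akr1c14 window, on the minus strand at chr17:71083185-71083434, holds none of the 3, and the Anxa5 window, on the minus strand at chr2:121272697-121272946, holds a GC box at -130 to -125.
Gstp1: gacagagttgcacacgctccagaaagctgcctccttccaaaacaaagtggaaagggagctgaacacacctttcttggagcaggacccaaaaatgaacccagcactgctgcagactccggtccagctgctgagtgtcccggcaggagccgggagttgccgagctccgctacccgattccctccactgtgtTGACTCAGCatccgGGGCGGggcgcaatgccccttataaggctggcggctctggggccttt
Inmt: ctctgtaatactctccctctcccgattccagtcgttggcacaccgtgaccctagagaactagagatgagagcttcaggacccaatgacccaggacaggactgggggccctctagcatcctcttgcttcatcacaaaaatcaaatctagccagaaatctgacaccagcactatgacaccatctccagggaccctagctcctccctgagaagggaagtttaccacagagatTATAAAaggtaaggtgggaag
Akr1c14: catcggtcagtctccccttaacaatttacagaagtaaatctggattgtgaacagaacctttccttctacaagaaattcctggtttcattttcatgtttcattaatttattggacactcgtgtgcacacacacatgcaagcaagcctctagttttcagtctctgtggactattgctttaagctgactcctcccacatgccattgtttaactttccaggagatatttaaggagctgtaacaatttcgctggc
Anxa5: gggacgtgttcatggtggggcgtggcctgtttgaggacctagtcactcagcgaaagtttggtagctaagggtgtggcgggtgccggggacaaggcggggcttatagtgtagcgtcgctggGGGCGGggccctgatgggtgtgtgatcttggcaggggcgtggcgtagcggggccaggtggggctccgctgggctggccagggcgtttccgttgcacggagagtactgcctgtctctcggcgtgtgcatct
Of 33469 rat promoters of this length, 10.1% hold the antioxidant response element core, 12.9% the TATA box and 30.5% the GC box on either strand. A match describes letters in the window and was not tested as a bound site.

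Of 25 listed glutathione transferases, 4 could be matched and tested. By edgeR 1 rose (Gstp1), 3 did not pass and none fell. Their log2 fold changes had a median of 1.14, beside -0.02 over all genes tested. Gstp1, Gsta3 and Gstz1 have a name here because they were picked for their change in these libraries, so neither their direction nor this median is evidence about the family. Gsta3 (ENSRNOG00000013484), an alpha class enzyme, had 666 to 1080 CPM in the egg libraries (median 798) and 166 to 552 CPM in the casein libraries (median 287). Its groups did not overlap, yet its log2 fold change of 1.37 (SE 0.296) missed the threshold (adjusted p = 0.112 by edgeR, 0.0032 by DESeq2 and 0.036 by limma-voom). Gsta3 passed when animal 9, the casein library with the highest level, was left out (log2 fold change 1.59, adjusted p = 0.0293), and without animals 4 and 9 (adjusted p = 0.0195). Gstz1, the zeta class enzyme that also serves tyrosine breakdown, had 61.2 to 111 CPM in the egg libraries (median 85.8) and 35.9 to 53.9 CPM in the casein libraries (median 45.1), again without overlap (log2 fold change 0.91, SE 0.242, adjusted p = 0.366 by edgeR and 0.0418 by DESeq2). Gstm2, a mu class enzyme, had 20.5 to 33.5 CPM on egg (median 26.3) and 10.2 to 22.7 CPM on casein (median 15.2), with overlapping groups (0.73, SE 0.304, adjusted p = 0.937). Summed over the 4 genes, the level was 1020 to 2560 CPM in the egg libraries (median 1460) and 385 to 752 CPM in the casein libraries (median 553). Ephx1, an epoxide hydrolase that acts beside these enzymes in detoxification, had 63.9 to 195 CPM on egg (median 113) and 44.4 to 119 CPM on casein (median 67.0), and did not pass (0.77, SE 0.285, adjusted p = 0.809).

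Of 20 genes on a list of matrix, calcium binding and injury genes, 5 were matched and tested, Spp1, Anxa5, Prelp, Parm1 and Ptgds. By edgeR only Anxa5 fell, and by DESeq2 all 5 did. The median log2 fold change was -1.53. All 5 are among the genes picked on these libraries. Spp1 (ENSRNOG00000043451) was the most abundant of them, with 46.1 to 846 CPM in the egg libraries (median 130) and 1160 to 3760 CPM in the casein libraries (median 2300). Every egg library lay below every casein library, but the egg libraries alone spread widely, from animal 8 at 46.1 CPM to animal 10 at 846 CPM. The log2 fold change of -3.15 (SE 0.602) did not pass by edgeR (adjusted p = 0.0711) and passed by DESeq2 (0.00291) and limma-voom (0.00193). Leaving out animal 10 moved the edgeR value to -3.93 (adjusted p = 0.000439), and it also passed without animal 3, 8 or 9, with adjusted p of 0.0417, 0.0254 and 0.0445.

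Prelp, a leucine-rich repeat proteoglycan of connective tissue, had 6.36 to 21.3 CPM in the egg libraries (median 10.2) and 20.4 to 44.1 CPM in the casein libraries (median 33.3), where only egg animal 10 reached the casein range (log2 fold change -1.49, SE 0.338, adjusted p = 0.152 by edgeR and 0.00871 by DESeq2). Without animal 10 it passed by edgeR (-1.73, adjusted p = 0.0405). Parm1, a mucin-like membrane protein, had 13.2 to 53.5 CPM on egg (median 36.4) and 53.7 to 154 CPM on casein (median 97.1), so that the closest libraries of the groups nearly touched (-1.53, SE 0.338, adjusted p = 0.124 by edgeR and 0.0104 by DESeq2), and it passed by edgeR without animal 9 (-1.66, adjusted p = 0.0448). Ptgds, a prostaglandin D synthase, had 4.57 to 11.7 CPM on egg (median 7.06) and 16.2 to 23.8 CPM on casein (median 18.7), without overlap (-1.38, SE 0.355, adjusted p = 0.328 by edgeR and 0.0281 by DESeq2). Ptgds and Prelp also mark other cell types. Of 12 connective tissue and macrophage markers listed, 2 were matched, Prelp and Il1rn. They summed to 6.36 to 23.4 CPM in the egg libraries and 24.8 to 47.4 CPM in the casein libraries. This sum is mostly Prelp itself, a gene picked on these libraries, so it is not separate evidence about a cell type. The part of such cells in these results was not tested. Il1rn alone had at most 5.38 CPM in any library.

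Cps1, carbamoyl-phosphate synthase, which feeds ammonia into the urea cycle, had 3.32 to 29.7 CPM in the egg libraries (median 11.6) and 27.8 to 78.5 CPM in the casein libraries (median 47.2). Only egg animal 5 reached the casein range. The fitted log2 change was -1.89 (SE 0.391, adjusted p = 0.0735 by edgeR, 0.00291 by DESeq2 and 0.0468 by limma-voom), and it passed without animal 5 (adjusted p = 0.0113) or 7 (0.0451). Cps1 is a hepatocyte marker, with a median of 1830 CPM in the brain-labelled table. The 4 hepatocyte markers matched summed to 4.99 to 41.4 CPM in the egg libraries and 31.2 to 112 CPM in the casein libraries, mostly Cps1 itself. Another of them, the cytochrome P450 gene Cyp2c22, had a median of 4.89 CPM on egg and 3.94 CPM on casein here. Its fitted log2 fold change was -0.46 (SE 0.653). In the brain-labelled table its median was 675 CPM over both diets, with 1490 CPM on egg and 530 CPM on casein. The log2 fold change of Cyp2c22 there was 1.54 (SE 0.423, adjusted p = 0.395 by edgeR). Over the 42 genes that were high in the brain-labelled table and nearly absent from this one, the adipose-labelled libraries held 0.338% to 1.83% of the brain-labelled level on egg (median 0.70%) and 0.463% to 1.82% on casein (median 1.25%). The same share for 31 genes of the liver-labelled table was 0.136% to 0.807% on egg (median 0.546%) and 0.266% to 2.18% on casein (median 0.635%), and for 229 genes of the kidney-labelled table it was 0.175% to 0.878% on egg (median 0.561%) and 0.482% to 1.00% on casein (median 0.762%). All these genes were chosen for a median of at most 1 CPM in the adipose-labelled table, which holds the shares low in advance. The shares therefore cannot measure how much RNA of another tissue these libraries held. The part of such RNA in the difference of Cps1 or of Akr1c14, whose median was 957 CPM in the brain-labelled table, was not tested.

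Genes of sulfur amino acid and taurine metabolism went in different directions. Csad, which makes hypotaurine from cysteine sulfinic acid, had 176 to 348 CPM in the egg libraries (median 244) and 101 to 149 CPM in the casein libraries (median 122). The groups did not overlap, and the log2 fold change of 1.00 (SE 0.232) did not pass (adjusted p = 0.155 by edgeR). The taurine transporter Slc6a6 had 15.2 to 68.3 CPM on egg (median 41.4) and 42.6 to 143 CPM on casein (median 108), with overlapping groups (-1.21, SE 0.319, adjusted p = 0.356). Of 10 genes on this list 3 were tested (with Gstz1), none passed by edgeR, and the median log2 fold change was 0.91. All 3 are among the genes picked for their change in these libraries, so neither this median nor a pass is evidence about the list. By DESeq2 Csad (adjusted p = 0.00424) and Gstz1 (0.0418) passed.

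Renal solute carriers were described as a group because the table is rich in them. Of 24 listed, 6 were tested, none passed by edgeR, and the fitted fold changes were above 0 for 3 and below 0 for 3 (median 0.21). Slc34a2, Slc17a3 and Slc6a6 are among the genes picked for their change in these libraries, so this median is not evidence about the carriers. Slc34a2, a sodium phosphate cotransporter, had 0 to 15.4 CPM in the egg libraries (median 9.24) and 20.5 to 48.4 CPM in the casein libraries (median 25.6), without overlap (-1.63, SE 0.421, adjusted p = 0.331 by edgeR and 0.0172 by DESeq2). Slc17a3 had 62.9 to 109 CPM on egg (median 97.7) and 21.5 to 76.8 CPM on casein (median 41.4), with overlapping groups (1.06, SE 0.284, adjusted p = 0.384). Aqp1 was close to equal in the groups, at 308 to 1250 CPM on egg (median 1140) and 516 to 1460 CPM on casein (median 970), with a log2 fold change of -0.03 (SE 0.331). Slc12a3 varied more within a diet than between diets, from 15.4 to 478 CPM on egg (median 268) and from 25.1 to 295 CPM on casein (median 116), with a log2 fold change of 0.77 (SE 0.759). Summed proximal tubule markers covered 462 to 1590 CPM in the egg libraries and 677 to 1710 CPM in the casein libraries. By edgeR 1 of the 5 tested rose (Inmt), beside 0.0238% of all genes tested. Inmt and Slc17a3 were picked for their change in these libraries, so this call is not evidence about the tubule markers. These tubule markers thus ranged widely within both diets, and their part in the differences above was not tested.

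Genes of sterol and fatty acid synthesis showed no call by edgeR, DESeq2 or limma-voom. Of the cholesterol synthesis list 10 genes were tested and none passed, 5 with a fold change above 0 and 5 below, with a median log2 fold change of 0.01. Sqle had 4.57 to 23.3 CPM on egg (median 14.1) and 7.08 to 40.9 CPM on casein (median 16.4), at -0.46 on the log2 scale (SE 0.411, adjusted p = 0.993 by edgeR). Of the fatty acid synthesis list 5 genes were tested and none passed (median -0.16). Fasn had 5.07 to 31.0 CPM on egg (median 19.9) and 20.5 to 83.5 CPM on casein (median 35.7), with overlapping groups (-1.11, SE 0.386, adjusted p = 0.732). Summed with Scd, the matched adipocyte markers were 8.11 to 42.3 CPM in the egg libraries and 22.1 to 84.1 CPM in the casein libraries.

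The remaining named genes with an unadjusted p under 0.05 did not pass edgeR's test after adjustment, and Entpd5, Mthfd2, Snn and Thap4 passed by DESeq2. Entpd5, a nucleotide diphosphatase of the endoplasmic reticulum, had 343 to 915 CPM in the egg libraries (median 536) and 167 to 295 CPM in the casein libraries (median 277), without overlap (log2 fold change 1.09, SE 0.278, adjusted p = 0.322 by edgeR and 0.0315 by DESeq2). Mthfd2, a mitochondrial enzyme of folate metabolism, had 1.66 to 4.95 CPM on egg (median 4.42) and 6.20 to 18.8 CPM on casein (median 13.4), from 52 counts on egg and 227 on casein (adjusted p = 0.404 by edgeR and 0.0498 by DESeq2). Snn had 8.31 to 48.7 CPM on egg (median 21.9) and 48.7 to 107 CPM on casein (median 69.7), and Thap4 11.2 to 25.6 CPM on egg (median 16.3) and 25.6 to 46.9 CPM on casein (median 44.1), so that for both genes the highest egg library came level with the lowest casein library to 3 digits. The adjusted p of Snn was 0.187 by edgeR, 0.0315 by DESeq2 and 0.0405 by limma-voom, and that of Thap4 was 0.155 by edgeR and 0.0104 by DESeq2. Glt1d1 was near the limit of counting, with 69 counts over the egg libraries and 23 over the casein libraries. Ptprn, a protein of dense-core vesicles in neuroendocrine cells, had 54.8 to 128 CPM on egg (median 83.6) and 27.3 to 76.1 CPM on casein (median 55.9). The 3 neuron and glia markers tested, Ptprn, Ptgds and Snn, summed to 99.4 to 154 CPM in the egg libraries and 115 to 181 CPM in the casein libraries. Of unnamed genes, ENSRNOG00000058571 had 31.4 to 90.8 CPM on egg (median 56.7) and 16.6 to 35.1 CPM on casein (median 28.9), and ENSRNOG00000018740 had 246 to 594 CPM on egg (median 444) and 155 to 317 CPM on casein (median 181), with overlap in both and an adjusted p of 0.404 for each.

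**Figure D4:**
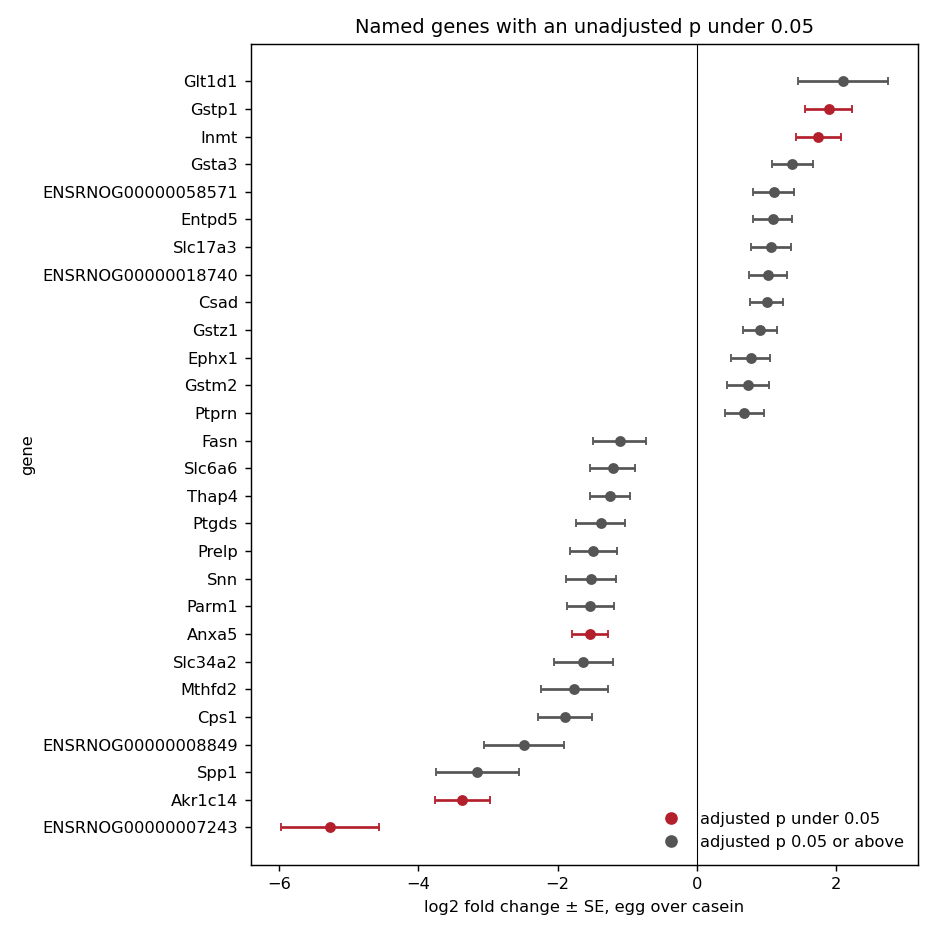
Log2 fold change of egg over casein with its SE for 28 named genes and IDs with an unadjusted p under 0.05, with the 5 that passed the adjusted threshold in red. Gstp1 and Inmt, at 1.89 and 1.74, and Akr1c14 and ENSRNOG00000007243, at -3.37 and -5.27, lie at the ends of the plot with Glt1d1 and Spp1.

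The same 12 rats gave libraries to the other tables, so the diet effect of the adipose-labelled table could be set against that of each other table by an interaction term over 24 libraries. Some markers also go against the other labels. Cps1 had a median of 1830 CPM in the brain-labelled and 14.8 CPM in the liver-labelled table. In the kidney-labelled table Aqp1 had 8.98 CPM and Ptprn 509 CPM. These contrasts are therefore between labelled tables, and no tissue is read from a label. The effect differed for 2 of 7424 genes (0.0269%) from the kidney-labelled table, for 9 of 7416 (0.121%) from the brain-labelled table, and for 1 of 7449 (0.0134%) from the liver-labelled table. Akr1c14 differed from all 3. In the kidney-labelled table it had a median of 7.36 CPM on egg and 7.10 CPM on casein, of 838 CPM on egg and 970 CPM on casein in the brain-labelled table, and of 183 CPM on egg and 82.0 CPM on casein in the liver-labelled table. The difference of log2 fold changes was -3.50 (SE 0.503, adjusted p = 0.000322 by edgeR) against kidney-labelled, -3.17 (SE 0.505, adjusted p = 0.00162) against brain-labelled and -4.34 (SE 0.544, adjusted p = 4.64e-05) against liver-labelled libraries. These calls held with each animal left out and with the animal as a replicate block.

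Anxa5 also differed from 2 tables. It had a median of 76.3 CPM on egg and 76.9 CPM on casein in the kidney-labelled table, and 21.7 CPM on egg and 18.3 CPM on casein in the brain-labelled table. The difference was -1.57 (SE 0.289, adjusted p = 0.0162 by edgeR) against the kidney-labelled table and -1.84 (SE 0.349, adjusted p = 0.0156) against the brain-labelled table. Against the liver-labelled table, where the medians were 642 CPM on egg and 680 CPM on casein, it was -1.30 (SE 0.32, adjusted p = 0.719). The first call was lost without animal 1, 3, 4, 5, 6, 8, 11 or 12 (adjusted p up to 0.132) and the second without animal 1, 3, 6 or 11 (up to 0.0813).

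For the genes higher on egg the difference between tables did not pass. Gstp1 differed by 1.81 (SE 0.375, adjusted p = 0.068 by edgeR) from the kidney-labelled table, by 1.57 (SE 0.481, adjusted p = 0.689) from the brain-labelled table and by 1.08 (SE 0.442, adjusted p = 1) from the liver-labelled table. Inmt was also higher on egg in the brain-labelled table, with a median of 106 CPM on egg and 28.8 CPM on casein (log2 fold change 2.36, SE 0.393, adjusted p = 0.0155 by edgeR), and its diet effect in the adipose-labelled table minus that one was -0.61 (SE 0.496, adjusted p = 0.998). In the kidney-labelled table Inmt was too low to test, with medians of 1.22 CPM on egg and 0.902 CPM on casein.

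Spp1 was far higher in the adipose-labelled table than in the others, whose medians over 12 libraries were 3.32 to 10.3 CPM. Its difference was -2.56 (SE 0.829, adjusted p = 1 by edgeR) against the kidney-labelled and -2.81 (SE 0.772, adjusted p = 0.422) against the brain-labelled table. With the animal as a block these became -3.37 (adjusted p = 0.0456) and -3.38 (adjusted p = 0.00377), so the block adds these calls. Against the liver-labelled table the difference was -2.57 (SE 0.75, adjusted p = 0.952), and the block added no call there (-3.09, adjusted p = 0.363). Cps1 differed by -2.25 (SE 0.468, adjusted p = 0.031 by edgeR) from the brain-labelled table, and the block removed this call (adjusted p = 0.058), as did leaving out animal 1, 2, 3, 4, 6, 8, 9, 10 or 11 (adjusted p up to 0.222). Csad differed by 1.65 (SE 0.349, adjusted p = 0.0339 by edgeR) from the brain-labelled table and kept the call with the block (0.0325), though of the 12 fits that leave out 1 animal it passed only without animal 8 or 10 (adjusted p up to 0.187 in the others). The other 5 genes called against the brain-labelled table, Sqle, Idi1, Msmo1, Hmgcs1 and Fads1, are enzymes of sterol and fatty acid synthesis that were lower on egg in the brain-labelled table and did not pass in the adipose-labelled one. Their differences were 2.04 to 4.41 on the log2 scale. With the block the call of Hmgcs1 was lost (adjusted p = 0.0881). Sqle kept its call with each animal left out, while Hmgcs1 lost it without animal 1, 2, 5, 6, 7, 9 or 11 (adjusted p up to 0.129), Idi1 without 1, 3, 6, 7, 10 or 11 (up to 0.0894), Fads1 without 1, 5, 7, 10 or 11 (up to 0.124) and Msmo1 without 11 (0.0813).

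**Figure D5:**
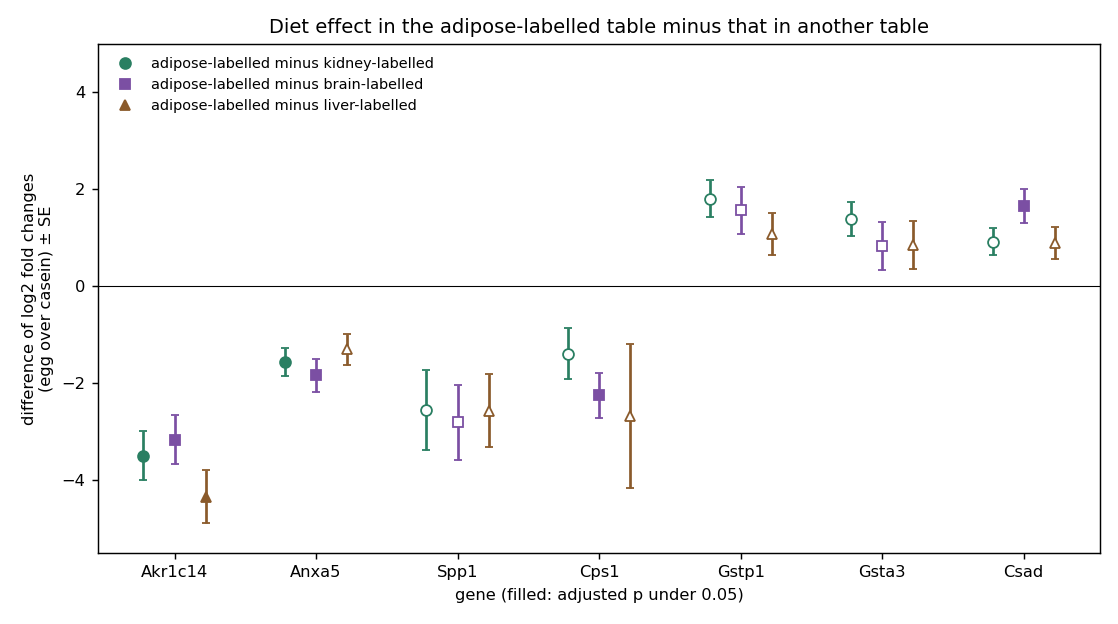
Diet effect (log2 fold change of egg over casein) in the adipose-labelled table minus that in the kidney-, brain- or liver-labelled table, with its SE, for 7 genes, where filled symbols had an adjusted p under 0.05 without the block. Akr1c14 lies at -3.17 to -4.34 and is filled for all 3 tables, and Anxa5 is filled for 2.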

How the data were processed

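The authors made QuantSeq 3′ mRNA libraries, trimmed and aligned the reads with STAR against Ensembl's rat assembly, and deposited raw counts per gene, with 1 table per tissue label; the submitters' processing notes name FastQC and DESeq with no version. QuantSeq reads come from near the 3′ end of a transcript. The authors also deposited DESeq2 comparison tables (mean, log2 fold change, p) and microRNA tables, which were not used here.

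Columns were tied to samples by tissue label and animal number, and their diet was taken from the headings, since no sample label gives it. No column was left without a sample. Genes that reached 10 counts in 6 or more of 12 libraries were scaled by TMM and tested with edgeR 4.0.16 (robust quasi-likelihood, R 4.3.3) at a Benjamini-Hochberg adjusted p under 0.05. CPM used TMM-scaled totals. Alternatives were DESeq2 1.42.0, limma-voom (limma 3.58.1), DESeq2 size factors, other filters and thresholds, and leaving out animals. The scripts were checked on simulated counts. Plots used Python 3.11.15 and matplotlib 3.10.9. A gene was called nearly absent from this table and high in another at medians of at most 1 CPM and at least 50 CPM.

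The named genes are those past the threshold, the named among the 15 of smallest p in each direction, those the study names for this tissue, members of the gene lists that could be matched, and up to 2 unnamed IDs in each direction. Members and lists were chosen with earlier results of these data known. No table used here gave a symbol to the other IDs. Replicates are separate rats. By the labels, an animal number is 1 rat in every table, and the interaction was therefore also fitted with the animal as a replicate block, and deviations from the diet means of paired libraries had a median correlation of 0.0886 with the brain-labelled, 0.0279 with the kidney-labelled and 0.0941 with the liver-labelled table. No library was a copy of another, the most alike pair having a chi-square of 13.6 per degree of freedom. A few genes are not reported here.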

Additional observations from a re-analysis of the deposited data

Results flagged for a closer look

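Of 56 groups of 6 libraries checked for 28 genes, 6 held a library far from its nearest neighbour, with a gap above 0.625 of the group's range. That limit, the Dixon critical value for 6, is meant for normally distributed values. Here it was applied to CPM of genes picked by their p, so the number expected by chance is not known. Among the egg libraries, animal 5 had 5.40 CPM of ENSRNOG00000007243 where the next had 0.483 CPM, and 1360 CPM of Gstp1 where the next had 573 CPM. Animal 12 had the lowest Glt1d1, 3.38 CPM, where the next had 5.07 CPM. Among the casein libraries, animal 1 had 111 CPM of ENSRNOG00000007243 where the next had 38.8 CPM, and the lowest Entpd5, 167 CPM, where the next had 271 CPM. Animal 9, the library with the lowest total count, had the lowest Anxa5 of the casein libraries, 193 CPM, where the next had 289 CPM.

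The diet effect differed between tables by the interaction test for 4 of these genes. The adipose-labelled effect minus the other was -3.50 (kidney-labelled), -3.17 (brain-labelled) and -4.34 (liver-labelled) on the log2 scale for Akr1c14, and -1.57 (kidney-labelled) and -1.84 (brain-labelled) for Anxa5. Against the brain-labelled table it was -2.25 for Cps1 and 1.65 for Csad.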

How the results depend on the processing

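Each of the 29 named genes and IDs with an unadjusted p under 0.05 kept its direction in all alternatives in which it was tested. The counts of calls were 2 genes higher and 3 lower on egg. DESeq2 gave 7 higher and 14 lower, limma-voom 6 lower, no count filter 7 lower, a filter of at least 10 counts in all 12 libraries 1 lower (it no longer tests Akr1c14 and ENSRNOG00000007243), and an adjusted p under 0.01 gave 0 higher and 2 lower. Leaving out each animal in turn gave 0 to 3 higher (0 without animal 1, 3 or 6, and 1 without 2, 5 or 12) and 3 to 7 lower (7 without animal 9, and 5 without 5 or 10). In alternatives chosen after seeing the data, 1 gene was higher without animals 3, 4 and 6 and 1 without animals 3, 4, 6 and 9, and only Akr1c14 and ENSRNOG00000007243 of the 5 calls were kept in both. The cause of these changes was not tested. The interaction calls under leave-one-out were 1 to 3 against the kidney-labelled, 2 to 10 against the brain-labelled and 1 against the liver-labelled table. With the animal as a replicate block they were 3, 9 and 1, and beyond Spp1, Cps1 and Hmgcs1 the block changed 1 call, adding Cyp4a1 against the brain-labelled table (-2.36, adjusted p = 0.0181 by edgeR). Within a table each rat had 1 diet, so that comparison has no pairs. Depth limits low genes most, with 941980 counts in animal 9. TMM factors of 0.451 in animal 4 and 0.588 in animal 3 also lowered the effective library size of those libraries.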
